A study of Drosophila melanogaster with 27 samples.

Results

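RNA levels of the 3 yolk protein genes, Yp1, Yp2 and Yp3, and of the yolk receptor gene yolkless (yl) were followed in adult Drosophila melanogaster females of 9 genotypes. Each gene was read from the probe set that the array annotation assigns to it alone, which gave 4 genes with 1 probe set each, of 11893 genes on the arrays (Yp1 1629545_at, Yp2 1623655_at, Yp3 1631419_at, yl 1626299_at). All 4 passed the filter on low values, a wild type mean above 6 on the log2 scale, as did 7378 genes in all. Each of the 27 arrays (Affymetrix Drosophila version 2, 3 biological replicates per genotype) held RNA of 10 young females. The study asked how expression responds to the loss or gain of chromosome segments and of chromosome 4.

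The groups differed in cross as well as in genotype. Wild type was the y1 w67c23 strain. Df(2L)ED4651/+, Df(3L)4470/+ and Df(2L)J-H/+ females each carried 1 copy of a segment of chromosome 2 or 3 and came from crosses of the deficiency stocks to Oregon R, so that the 3 groups shared a parent strain that wild type lacked. Females with 1 copy of chromosome 4 (haplo 4th), Df(2L)J-H/+ haplo 4th females and Dp(2;2)Cam3/+ triplo 4th females (a duplicated segment of chromosome 2 with 3 copies of chromosome 4) came from crosses with a compound chromosome 4 stock, C(4)RM. The pof-mutant group was a y1 w67c23 stock homozygous for PofD119. The pof-mutant triplo 4th group came from a cross of that stock to Pof119/CyO flies carrying C(4)RM. Cross and genotype cannot be told apart in any comparison with wild type. The same holds between the other groups, since each came from its own cross or stock. All 4 genes lie on the X chromosome, outside every altered region that the labels name, and Yp1 and Yp2 are direct neighbours there.

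Yolk proteins are made in the fat body and in the follicle cells that surround each egg chamber of the ovary. The fat body secretes them into the haemolymph, from which the oocyte takes them up by endocytosis through Yolkless, a receptor of the low-density lipoprotein receptor family that the germline makes. Transcription of the yolk protein genes is limited to females by Doublesex and depends on feeding, juvenile hormone and ecdysone, and yolk deposition starts in young adult females. Whole females hold all of these tissues, so a lower level on an array cannot separate fewer cells of a type from less RNA per cell.

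The yolk protein genes were among the brightest on the arrays. Over the 27 arrays, the deposited log2 level of Yp1 ran from 11.82 to 13.82, with a median rank of 140 among the 18952 probe sets. Yp2 ran from 9.55 to 14.12 (median rank 215) and Yp3 from 10.16 to 14.00 (median rank 225). The highest values lay just below the brightest probe set of an array, whose log2 value was between 14.20 and 14.63. The receptor gene yl, for which levels ran from 7.38 to 11.22 (median rank 2250), lay in the upper middle of the range. The arrays at the extremes differed 3.98-fold in Yp1, 23.7-fold in Yp2, 14.3-fold in Yp3 and 14.3-fold in yl. No gene's level is set against another gene's below; where 2 genes are subtracted within an array, only the change of that difference between groups is read.

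Arrays of 1 group differed in these genes more than for most genes. The residual SD around the group means was 0.898 for Yp2, 0.925 for Yp3 and 0.732 for yl, above 97.3%, 97.6% and 93.9% of all genes. For Yp1 it was 0.384 (62.4%), against a median of 0.316 over all genes. The pairwise correlation between arrays of a group was 0.94 or higher over all genes in 6 groups, and reached down to 0.84 in the duplication group, 0.67 in pof-mutant triplo 4th and 0.62 in pof-mutant. The Pof probe set did not lie below wild type on the arrays labelled pof-mutant (deposited log2 9.70 ± 1.14 against 7.68 ± 0.24, SD, n = 3 each). Whether that probe set lies outside the altered part of the gene was not tested, and directions in these groups rest on the labels. Of 18 male reproductive tract genes, 0 passed the filter.

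In the wild type, the 3 arrays were close together for every yolk gene. After each array was centred on the same mean of the filtered genes, Yp1 was 13.67, 13.51 and 13.59 on replicates 1, 2 and 3. Yp2 was 13.42, 13.44 and 13.44, and Yp3 was 13.19, 13.21 and 13.12. The receptor gene yl was 10.69, 10.45 and 10.72. The SD of Yp2 was 0.01 here and 0.14 or more in each of the other 8 groups.

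**Figure D1:**
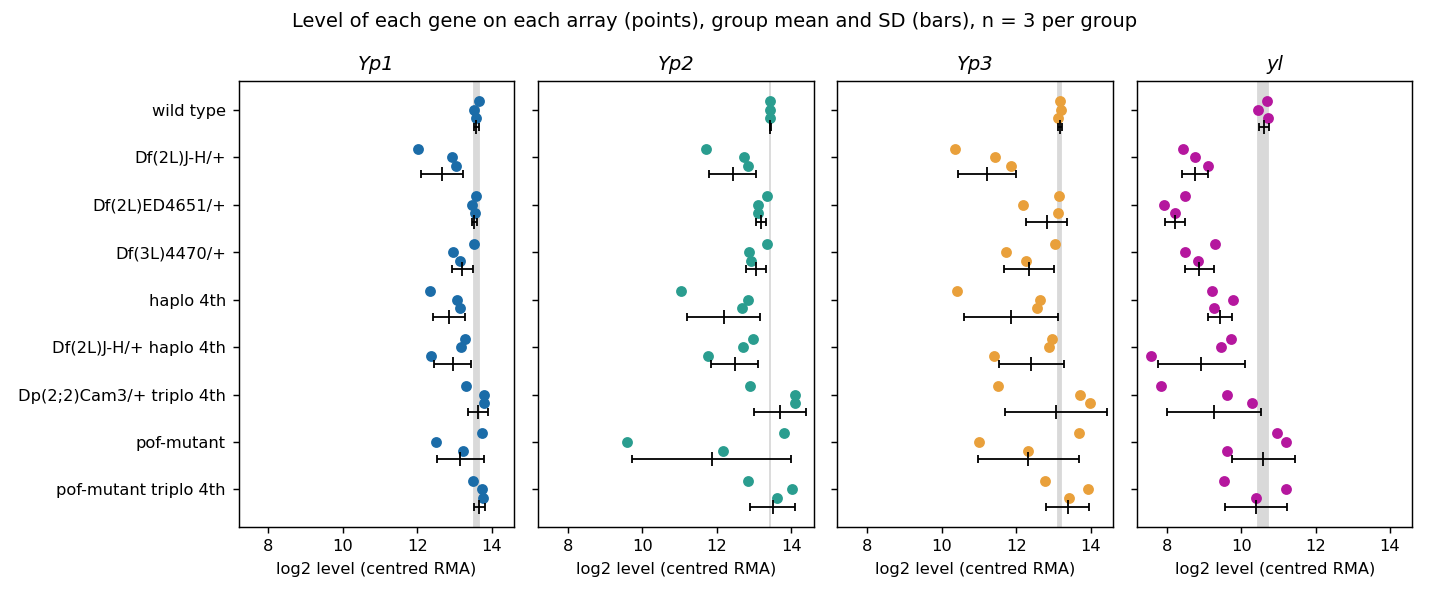
Centred log2 RMA level (x axis) of Yp1, Yp2, Yp3 and yl on each of the 27 arrays, by genotype (y axis); points are arrays, in the order of replicates 1 to 3 from top to bottom, ticks and whiskers are the group mean and SD (n = 3), and the grey band spans the wild type arrays. The yl points of 6 genotypes lie wholly left of the wild type band, and the lowest point of Yp2 is pof-mutant replicate 2 at 9.58.

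The receptor gene was lower in the 3 deficiency groups, and this was the clearest difference among the 4 genes. In Df(2L)ED4651/+, yl was 8.48, 7.94 and 8.23, which is the lowest group mean of all (8.22 ± 0.27, SD, n = 3, against 10.62 ± 0.14 in wild type). In Df(2L)J-H/+ it was 8.43, 8.75 and 9.11. In Df(3L)4470/+ it was 9.30, 8.50 and 8.84. All 9 arrays lay below the 3 wild type arrays. Genes with all 3 arrays below wild type made up 33.5% of all genes in Df(2L)ED4651/+, 31.6% in Df(2L)J-H/+ and 28.9% in Df(3L)4470/+.

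In the limma fit over all 27 arrays (Benjamini-Hochberg adjustment over 7378 genes, threshold 0.05), yl fell by 2.40 (SE 0.56, adjusted p = 0.00569) in Df(2L)ED4651/+ on the log2 scale, a level 5.29-fold lower. Its difference was -1.85 in Df(2L)J-H/+ (SE 0.56, adjusted p = 0.0290) and -1.74 in Df(3L)4470/+ (SE 0.56, adjusted p = 0.0416). Over the 3 deficiency crosses together yl was 4.00-fold lower (adjusted p = 0.00330), with a 95% interval of the log2 difference from -2.96 to -1.04. The share of all genes called lower was 8.86%, 6.83%, 5.29% and 13.9% in these 4 comparisons. The calls in Df(2L)ED4651/+ and in the 3 crosses together held whichever array was left out. The call in Df(2L)J-H/+ was lost without any 1 of its own or of the wild type arrays (adjusted p from 0.0549 to 0.0960), and that in Df(3L)4470/+ was lost in 11 of the 27 fits (up to 0.171, without its own replicate 2).

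In 2 of these groups the yolk protein genes differed less from wild type. In Df(2L)ED4651/+, Yp1 was 13.58, 13.46 and 13.55, which overlapped wild type, with a difference of -0.06 (SE 0.30, adjusted p = 0.899, limma). Yp2 was 13.35, 13.11 and 13.12, just below the wild type arrays, and the 95% interval of its difference of -0.24 ran from -1.68 to 1.19. Yp3 was 13.16, 12.18 and 13.12, so that only replicate 2 lay below wild type. In Df(3L)4470/+, Yp1 was 13.53, 12.95 and 13.15, Yp2 was 13.34, 12.87 and 12.93, and Yp3 was 13.05, 11.72 and 12.26. Replicate 1 was the highest array in each of the 3 genes, and none was called (log2 differences -0.38, -0.39 and -0.83, adjusted p from 0.399 to 0.726).

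In the Df(2L)J-H/+ females, all 3 yolk protein genes lay below wild type without overlap, as did 31.6% of all genes. Of all genes, 6.83% were called lower. Yp1 was 12.02, 12.92 and 13.05, and its difference of -0.92 (SE 0.30, adjusted p = 0.0406, limma) was the only call among the 3 genes in any comparison with wild type. It was lost without Df(2L)J-H/+ replicate 1 (adjusted p = 0.202), its replicate 2 (0.0564) or any wild type array (0.0758 to 0.108). Yp3 was 10.36, 11.42 and 11.87, the lowest group mean of this gene, and differed by -1.96 (SE 0.71, adjusted p = 0.0601), close to the difference of yl in this group. Yp2 was 11.70, 12.73 and 12.85 and differed by -1.01 (SE 0.69, adjusted p = 0.304). Replicate 1 was the lowest of the 3 arrays for all 4 yolk genes.

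**Figure D2:**
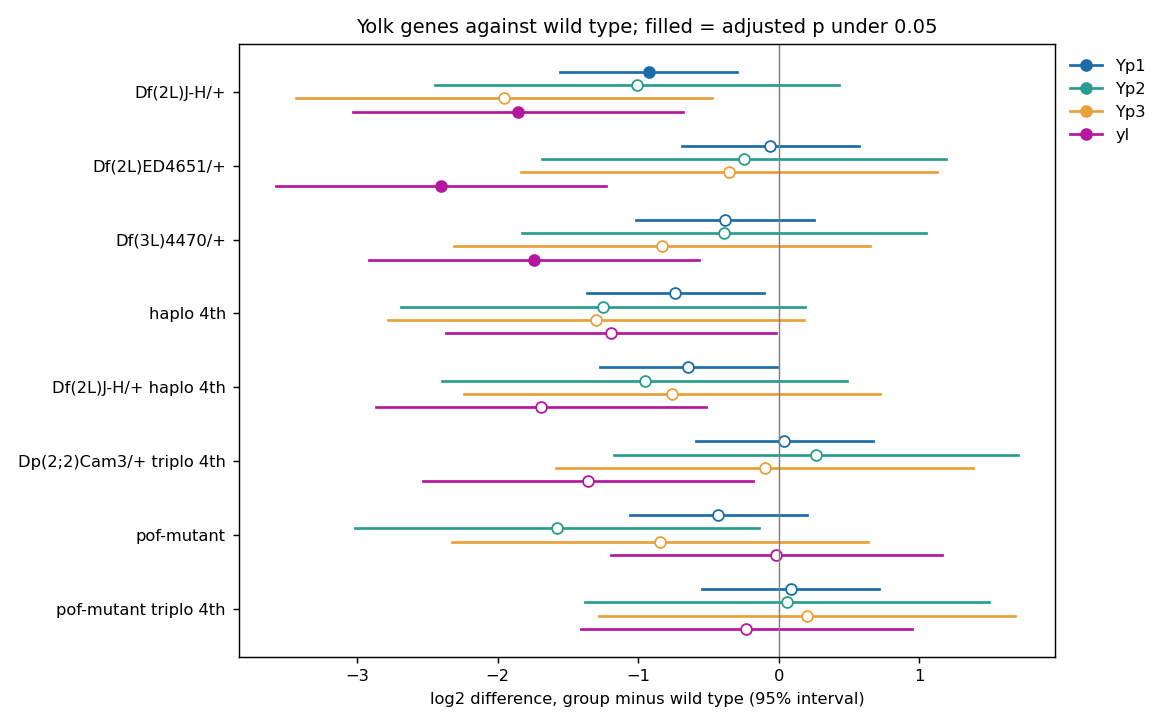
Log2 difference of each genotype from wild type (x axis) for Yp1, Yp2, Yp3 and yl, by genotype (y axis); points are limma estimates over 27 arrays, lines are 95% intervals, and filled points have an adjusted p under 0.05. The 4 filled points are Yp1 in Df(2L)J-H/+ and yl in the 3 deficiency groups, where the estimates of yl are -1.85, -2.40 and -1.74.

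Whether yl and a yolk protein gene shifted unequally was tested on their difference within each array, with an exact two-sided permutation test over arrays. In the 9 arrays of the deficiency crosses against the 3 wild type arrays, the difference Yp2 minus yl was 1.45 higher (exact p = 0.00455, the smallest this design allows) and Yp1 minus yl was 1.54 higher (exact p = 0.00909). For both, every deficiency array lay above every wild type array. Yp3 minus yl was 0.95 higher, with overlap (exact p = 0.136). In Df(2L)ED4651/+ alone, the 3 differences were 2.34, 2.16 and 2.05 higher for Yp1, Yp2 and Yp3, each without overlap, at an exact p of 0.10, the smallest that 3 against 3 can reach. In Df(2L)J-H/+ the difference Yp3 minus yl changed by -0.10 (exact p = 0.90). The yolk protein probe sets lay close to the array maximum, and its part in these differences was not tested. None of the 54 comparisons of this kind passed after Benjamini-Hochberg adjustment (lowest adjusted p 0.225). This outcome was largely fixed by the design. In 48 of them 3 arrays stood against 3, so that the exact p could not fall below 0.10. The adjusted values therefore cannot decide whether 2 genes shifted unequally.

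Females with 1 copy of chromosome 4 had lower values of all 4 genes, and none of them was called. In haplo 4th, Yp1 was 12.35, 13.06 and 13.15. Yp2 was 11.05, 12.83 and 12.67, and Yp3 was 10.42, 12.65 and 12.55. Replicate 1 stood apart in the 3 yolk protein genes: without it, the difference of Yp2 from wild type moved from -1.25 to -0.69 and that of Yp3 from -1.30 to -0.57. The receptor gene did not share this, with yl at 9.22, 9.79 and 9.26. All arrays of this group lay below wild type for the 4 genes, as did 25.7% of all genes, while 1.41% of genes were called lower. At an unadjusted p under 0.05, 2 of the 4 genes passed, as did 1247 of all 7378 genes (limma). The 2 were Yp1 at -0.73 (adjusted p = 0.207) and yl at -1.19 (adjusted p = 0.287).

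When the J-H deficiency was combined with the loss of a chromosome 4 (the Df(2L)J-H/+ haplo 4th group), it was replicate 3 that stood apart, and here in all 4 genes. Yp1 was 13.28, 13.18 and 12.37, and Yp2 was 12.97, 12.71 and 11.77. Yp3 was 12.95, 12.88 and 11.41, and yl was 9.73, 9.47 and 7.59, the last being the lowest yl value of the 27 arrays. Each array lay below wild type for each gene (22.0% of all genes), and 4.30% of genes were called lower. The difference of yl was -1.69 (SE 0.56, adjusted p = 0.0621, limma), and -1.02 without replicate 3. It passed in the fits without 7 of the other arrays (adjusted p from 0.0309 to 0.0494).

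The duplication group split in the same way, with replicate 1 low. In Dp(2;2)Cam3/+ triplo 4th, Yp1 was 13.31, 13.78 and 13.80, and Yp2 was 12.90, 14.10 and 14.11. Yp3 was 11.51, 13.72 and 13.98, and yl was 7.86, 9.63 and 10.29. Replicates 2 and 3 were above all wild type arrays for the 3 yolk protein genes and below them for yl. Non-overlap below wild type covered 15.1% of all genes, and 1.29% were called lower. The log2 differences were 0.04, 0.26, -0.10 and -1.36 for Yp1, Yp2, Yp3 and yl, with an adjusted p of 0.227 for yl (limma). Without replicate 1 the difference of yl was -0.66 and that of Yp3 turned to 0.68.

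The arrays labelled pof-mutant had the widest range of Yp2 of the 9 groups. Yp2 was 13.82, 9.58 and 12.18 on replicates 1, 2 and 3, Yp1 was 13.74, 12.51 and 13.23, and Yp3 was 13.68, 10.99 and 12.32. In all 3 genes replicate 1 lay above and replicates 2 and 3 below the wild type arrays. The receptor gene was ordered differently, at 10.96, 11.21 and 9.63, with the highest value on replicate 2, where Yp2 had its lowest value of all 27 arrays. The difference of Yp2 from wild type was -1.58 (SE 0.69, adjusted p = 0.119, limma). It was -0.44 without replicate 2 and -2.56 without replicate 1, when it passed the test (adjusted p = 0.0216). The difference of yl was -0.02, with a 95% interval from -1.19 to 1.16.

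The arrays labelled pof-mutant triplo 4th lay on both sides of wild type. Yp1 was 13.50, 13.75 and 13.76, and Yp2 was 12.85, 14.03 and 13.61. Yp3 was 12.78, 13.92 and 13.43, and yl was 9.55, 11.21 and 10.41. All 4 genes overlapped wild type, with replicate 1 the lowest in each and replicate 2 the highest in Yp2, Yp3 and yl. Differences ran from -0.23 for yl to 0.20 for Yp3 (adjusted p from 0.936 to 0.982, limma). Of all genes, 2.43% were called lower in pof-mutant and 0.962% in pof-mutant triplo 4th.

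Over all 9 groups, yl and Yp1 differed among genotypes in limma's moderated F test (F = 4.87, adjusted p = 0.00606 for yl; F = 3.04, adjusted p = 0.0356 for Yp1), as did 61.7% of all genes. Yp2 (F = 1.77, adjusted p = 0.173) and Yp3 (F = 1.85, adjusted p = 0.155) did not pass. The call of Yp1 was lost in 9 of the 27 fits with 1 array left out (adjusted p up to 0.0622). In the order of the group means of yl, wild type (10.62), pof-mutant (10.60) and pof-mutant triplo 4th (10.39) came first and did not differ beyond their SDs. A gap of 0.96, larger than the SDs beside it, set them apart from haplo 4th (9.43). Next came the duplication group (9.26), Df(2L)J-H/+ haplo 4th (8.93), Df(3L)4470/+ (8.88) and Df(2L)J-H/+ (8.76), with gaps within the SDs, and then Df(2L)ED4651/+ after a gap of 0.55. For Yp1, only the step from Df(2L)ED4651/+ (13.53) to Df(3L)4470/+ (13.21) was larger than the SDs beside it, and for Yp2 only that from wild type (13.44) to Df(2L)ED4651/+ (13.19). For Yp3 no neighbouring groups in the order differed beyond their SDs. The order of Yp3 began with pof-mutant triplo 4th (13.38) and ended with haplo 4th (11.87) and Df(2L)J-H/+ (11.22).

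Between groups other than wild type, 0 of 20 tests of a yolk gene passed after adjustment, and 3 had an unadjusted p under 0.05 (limma, 5 comparisons of 4 genes). The share of all genes called was 0.542% between haplo 4th females with and without Df(2L)J-H, 4.46% between Df(2L)J-H/+ females with 1 and 2 copies of chromosome 4, 2.11% for the duplication group against haplo 4th, 3.39% for it against pof-mutant triplo 4th and 0% for pof-mutant triplo 4th against pof-mutant, where 422 genes had an unadjusted p under 0.05. The 3 were Yp2 in pof-mutant triplo 4th against pof-mutant (1.64 higher, SE 0.69, adjusted p = 0.536, and 0.50 without pof-mutant replicate 2), Yp2 in the duplication group against haplo 4th (1.52, adjusted p = 0.378, and 0.95 without haplo 4th replicate 1), and Yp1 in that comparison (0.78, adjusted p = 0.264). In the duplication group against haplo 4th, 855 genes had an unadjusted p under 0.05. Females with 1 and 2 copies of chromosome 4 also differed in cross, which cannot be told apart from copy number here.

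Df(2L)J-H was compared with a group that lacked it at 2 and at 1 copy of chromosome 4, and the difference between these effects was tested. The Df(2L)J-H/+ females came from an Oregon R cross, and both groups with 1 copy came from C(4)RM crosses. Cross and copy number therefore cannot be told apart in this test. Against wild type, the deficiency went with log2 differences of -0.92, -1.01, -1.96 and -1.85 in Yp1, Yp2, Yp3 and yl. The effect with 1 copy, measured against haplo 4th, was higher by 1.02, 1.31, 2.50 and 1.36. None of these passed (adjusted p = 0.309, 0.549, 0.289 and 0.465, limma), and 0.596% of all genes were called. Yp1 and Yp3 had an unadjusted p under 0.05, as did 967 of all 7378 genes.

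The 3 yolk protein genes varied together from array to array within the groups. After subtraction of the group means, Yp1 and Yp3 had a Pearson r of 0.91 (Spearman rho 0.90) over the 27 arrays, Yp1 and Yp2 an r of 0.89 (rho 0.90), and Yp2 and Yp3 an r of 0.88 (rho 0.92). The permutation p, with arrays permuted within groups, was 0.00012 or lower for each after adjustment over the 6 pairs, for r and rho alike. Without the 2 arrays farthest from the median of the first gene, r was 0.91, 0.89 and 0.93.

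The receptor gene followed the yolk protein genes less closely. Its r was 0.64 with Yp3 (rho 0.69, adjusted permutation p 0.0201 and 0.00325) and 0.51 with Yp1 (rho 0.59, 0.0439 and 0.0103). For Yp2 the r was 0.35 (adjusted permutation p = 0.207) and the rho 0.59 (adjusted permutation p = 0.0120). Without the 2 farthest arrays, which are pof-mutant replicates 2 and 1 for Yp2, r with yl was 0.58, 0.69 and 0.69 for Yp3, Yp1 and Yp2. Within the 21 arrays outside the pof-mutant groups it was 0.82, 0.73 and 0.74. Leaving out pof-mutant replicate 2 alone raised the r of Yp2 and yl to 0.80. Leaving out Df(2L)J-H/+ haplo 4th replicate 3 lowered that of Yp1 and yl to 0.36, which no longer passed (adjusted permutation p = 0.188), and that of Yp3 and yl to 0.59 (0.07). The r of Yp3 and yl was 0.51 without replicate 1 of the duplication group and did not pass there either (0.0791).

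**Figure D3:**
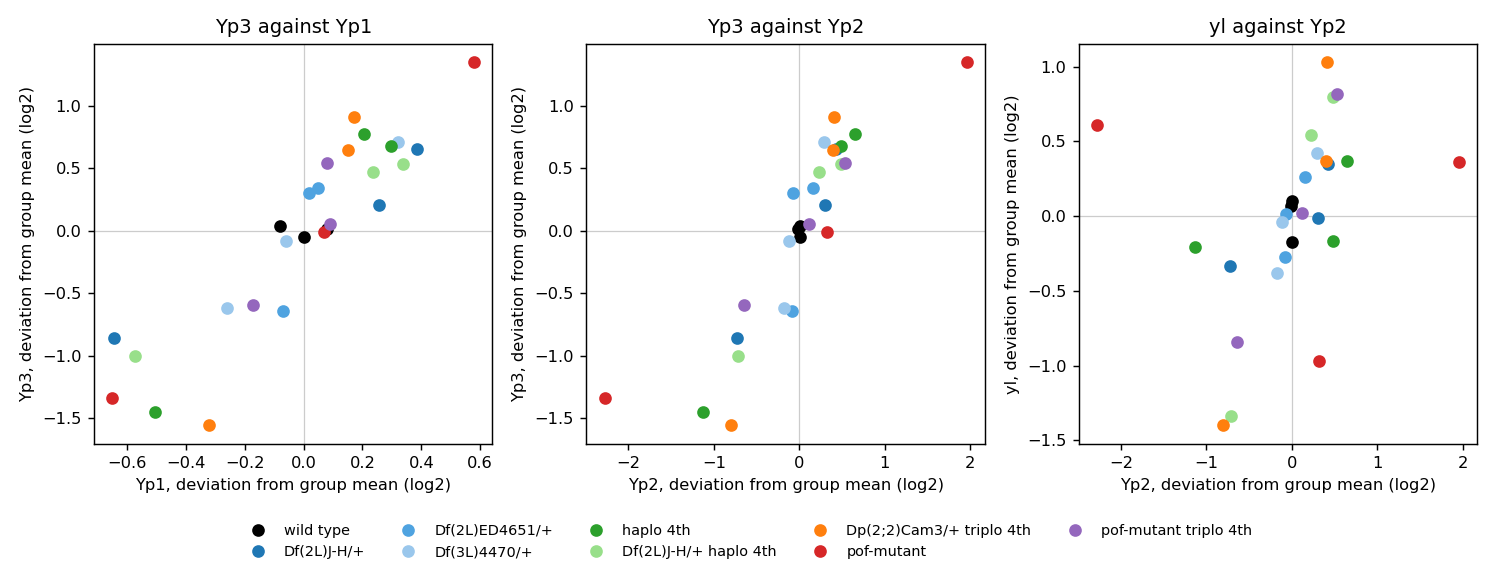
Deviation of each array from its group mean in log2 units, for Yp3 against Yp1, Yp3 against Yp2 and yl against Yp2; each point is 1 of 27 arrays, coloured by genotype. The first 2 panels form a single band (r = 0.91 and 0.88), whereas in the third the arrays labelled pof-mutant lie off the band (r = 0.35).

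The genes whose pattern over the 27 arrays was most like that of each yolk gene differed between the yolk proteins and the receptor. These correlations are descriptions over all arrays and hold the differences between groups as well as those within them, and 2 genes of an array share its RNA and its scaling. Yp3 was most like Yp1 (r = 0.92), the vitelline membrane gene Vm26Aa (0.90), the trypsin gene epsilonTry (0.89), the vitelline membrane gene Vm34Ca (0.87) and Iris (0.84), a gene derived from a retroviral envelope. For Yp1 the nearest genes were Yp3 (0.92), Iris (0.86), Yp2 (0.85), Vm26Aa (0.80) and epsilonTry (0.76). Yp2 was nearest to Iris (0.85), Yp1 (0.85), Yp3 (0.83), CG8303 (0.77) and apolpp (0.77), which encodes the main lipid carrier of the haemolymph and lies on chromosome 4, the copy number of which varied.

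None of the yolk protein genes was among the genes nearest to yl. The nearest were gnu (r = 0.98), a regulator of the egg-to-embryo transition, CG10254 (0.98), the mitotic cyclin gene CycB (0.98), the ion channel gene rpk (0.98) and fs(1)N (0.97), which acts in the eggshell; gnu and CycB are also in the germline list described next. Among 7377 genes ordered by their r with yl, Yp3, Yp1 and Yp2 took places 2619, 2886 and 3443. The lowest r with yl were those of CG14787 (-0.94), CG6356 (-0.93) and CG14304 (-0.92). For Yp1 they were those of Nt5a (-0.79), CG9646 (-0.74) and CG7632 (-0.73), and for Yp3 those of Nt5a (-0.75), CG9646 (-0.71) and CG5854 (-0.70). For Yp2 they were those of Vps24 (-0.79), which acts in endosomal sorting, the mitochondrial transport gene Miro (-0.78) and CG9775 (-0.76).

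Markers of the tissues that make these RNAs were related to the 4 genes in unequal ways, and each r is given first over the levels of the 27 arrays and then over deviations from the group means. The mean of 26 germline genes of the ovary ran from 9.32 to 9.79 on the wild type arrays and from 7.65 to 8.17 in Df(2L)ED4651/+. It had an r of 0.97 and 0.95 with yl, 0.43 and 0.50 with Yp3, 0.32 and 0.34 with Yp1, and 0.04 and 0.20 with Yp2. In the 3 deficiency crosses together, 19 of the 26 fell and 1 rose (stau), where 13.9% of all genes were called lower and 17.7% higher, with a median of -1.41 beside -0.01 over all genes. Among them were bcd (-3.13, adjusted p = 0.0176, limma), otu (-2.98, 0.00701) and exu (-2.54, 0.0193). The part of ovary content in the difference of yl was not tested.

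The mean of 16 eggshell genes of the follicle cells, which make yolk protein as well, ran from 7.38 to 10.51 in wild type, where replicate 3 was the high one. Its r was 0.73 and 0.69 with Yp3, 0.65 and 0.58 with Yp1, 0.62 and 0.70 with Yp2, and 0.68 and 0.60 with yl. Of the 16 genes, 4 fell and 0 rose in the 3 deficiency crosses, beside 13.9% and 17.7% of all genes. Their median was -2.07, beside -0.01 over all genes. Vm26Aa (-4.70, adjusted p = 0.0482, limma), Vm34Ca (-4.52, 0.0392) and dec (-4.51, 0.0273) fell the furthest. The list mean was 2.44 lower in those crosses, and 1.46 lower without wild type replicate 3. In the duplication group the mean eggshell level was 8.30 ± 3.05 (SD, n = 3), and in pof-mutant triplo 4th it was 9.63 ± 3.41, the highest group mean. The 3 wild type arrays, replicate 3 included, spanned 0.16 in Yp1, 0.02 in Yp2 and 0.09 in Yp3.

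The mean over 17 fat body genes was 10.98, 10.14 and 10.97 on the wild type arrays, where replicate 2 stood apart. Its group mean was 11.41 in Df(2L)ED4651/+, 11.18 in Df(3L)4470/+ and 11.09 in Df(2L)J-H/+, and also 11.40 in the deficiency with haplo 4th, 11.14 in haplo 4th and 11.11 in the duplication group. Over the 3 deficiency crosses it was 0.53 higher than in wild type, and 0.25 higher without wild type replicate 2. Of the 17 genes, 4 rose and 0 fell there, beside 17.7% and 13.9% of all genes. The largest of these changes were in Lsd-1, a lipid droplet protein gene (1.54, adjusted p = 0.000850), Apoltp, a lipid transfer protein gene (0.99, 0.0153), and the lipase gene bmm (0.57, 0.00155). The r of the fat body mean was 0.45 and 0.64 with Yp2, 0.14 and 0.41 with Yp3, 0.13 and 0.51 with Yp1, and -0.61 and -0.22 with yl. On pof-mutant replicate 2, where Yp2 was at 9.58 and yl at 11.21, the fat body mean was 9.01 and the eggshell mean 5.27, each the lowest of the 27 arrays, and the germline mean was 11.01, the highest. The part of these tissues in the values of that array was not tested.

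**Figure D4:**
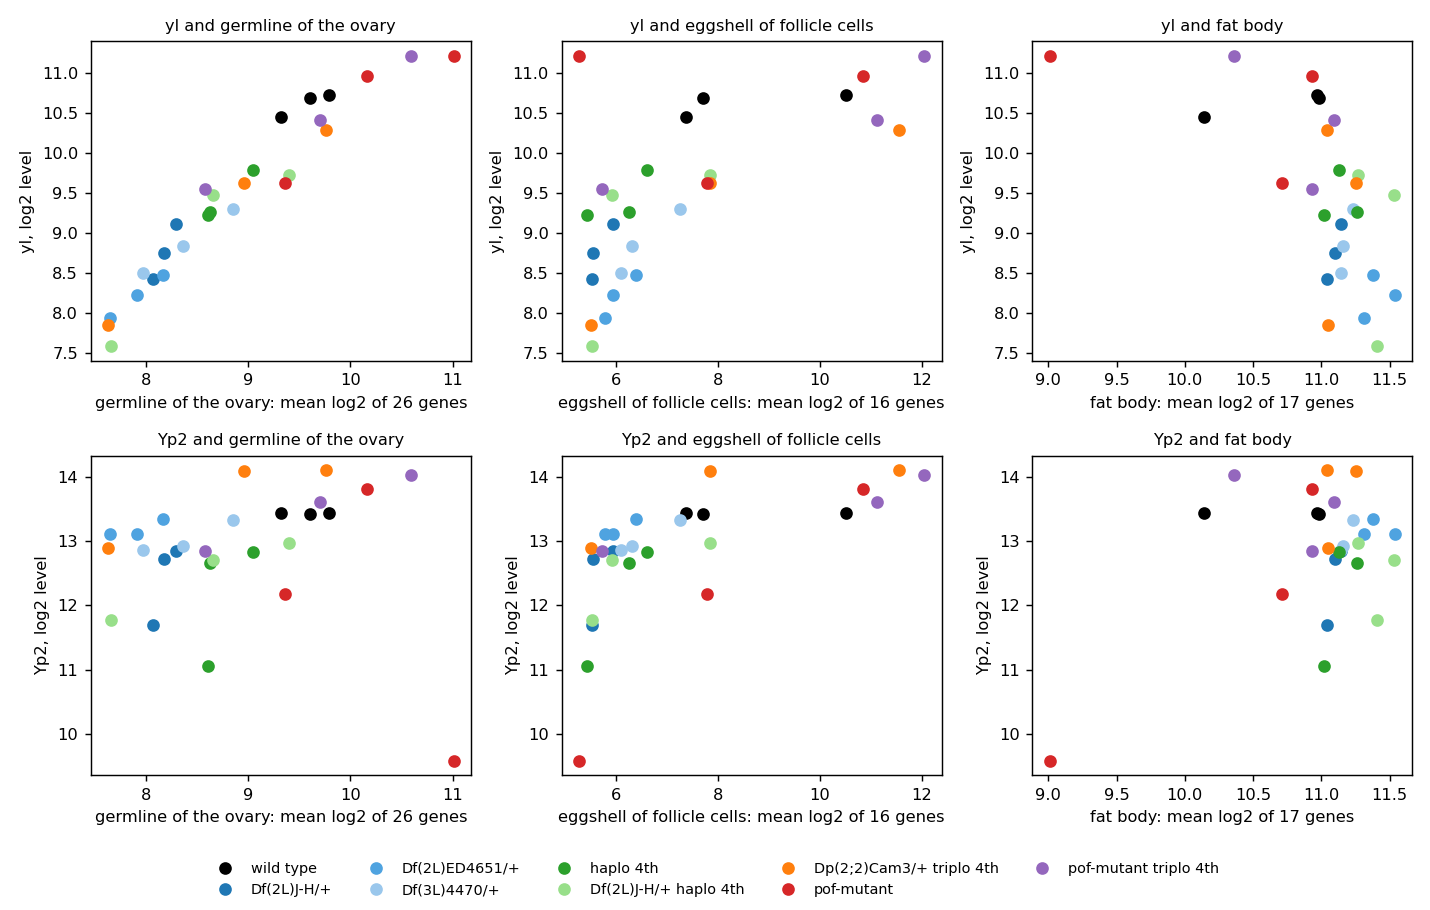
Centred log2 level of yl (top row) and Yp2 (bottom row) against the mean log2 level of 26 germline, 16 eggshell and 17 fat body genes; each point is 1 of 27 arrays, coloured by genotype. The yl points form a narrow rising band against the germline mean (r = 0.97), and the isolated point at the lower right of the Yp2 and germline panel is pof-mutant replicate 2.

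Genes that act before and after the yolk genes are given for the 3 deficiency crosses against wild type, where 17.7% of all genes were called higher and 13.9% lower (limma). Of 21 genes of endocytosis and trafficking in the oocyte, 3 rose and 4 fell, close to these shares, with a median of -0.05. The largest falls were in osk (-1.17, adjusted p = 0.0153), which organises the posterior pole and is in the germline list too, Rme-8 (-1.12, 1.1e-05), an endosomal co-chaperone, and Rip11 (-0.51, 0.000649), which acts with Rab11 in recycling. The mean of this list had an r of 0.76 (levels) and 0.53 (deviations) with yl, and between -0.31 and 0.12 with the yolk protein genes on either scale. Of 8 sex determination genes, dsx (1.44, adjusted p = 0.0115) and tra (0.31, 0.0256) rose and fl(2)d fell by 0.64 (0.0194). The female and male products of dsx and tra were not told apart by these values.

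Among 14 hormone and nutrient genes, 4 rose and 2 fell in the same comparison, beside 17.7% and 13.9% of all genes. The juvenile hormone esterase gene Jhe rose by 1.71 (adjusted p = 0.0141) and Kr-h1, a juvenile hormone response gene, by 1.20 (0.00628), while usp, which encodes the partner of the ecdysone receptor, fell by 0.94 (0.00358). Of 4 ecdysone synthesis genes, sro (0.66, adjusted p = 0.0100) and Start1 (0.34, 0.0202) rose.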

How the data were processed

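The deposited table holds 1 log2 value per probe set and array, which the authors made with robust multi-array analysis (RMA) in R/Bioconductor; versions are not given in the sources used here. Of 18952 probe sets, 13646 had 1 gene symbol, 402 several and 4904 none; 13543 of the first matched the gene table, and each of 11893 genes took its probe set with the highest mean. Genes with a wild type mean above 6 were kept (7378), and a constant was added to each array, wild type included, to bring its mean over these genes to that of wild type. In the study the constant was added to the mutant arrays only.

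Groups were compared with limma 3.58.1 (R 4.3.3), 1 mean per group over all 27 arrays, with Benjamini-Hochberg adjustment over all genes and a threshold of 0.05. Differences between 2 genes used exact permutations, and correlations used 100000 permutations within groups (scipy 1.17.1). The replicates were labelled biological, and p-values measure only the spread between these samples. The number of arrays limits the precision.

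The 4 genes and the gene lists were chosen with earlier results of these data known. Beside the 4 genes, the text names, per gene, the 5 highest and 3 lowest correlated genes, and per list the called genes with the 3 largest changes; stau was named after its value was seen. Gene order and chromosomes came from assembly Release 6 plus ISO1 MT. No sequences were used here. Alternatives varied the centring, filter, probe set rule, weights, variance prior, replicate block and arrays in the fit.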

Additional observations from a re-analysis of the deposited data

How the results depend on the processing

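Of 489 tests of single yolk genes under settings other than a left-out array, 444 kept their direction and their side of the threshold, 36 gained a call, 5 lost one and 4 turned direction. The fall of yl in Df(2L)ED4651/+, in Df(2L)J-H/+ and in the 3 deficiency crosses together passed in all 12 settings, the main one included (adjusted p up to 0.00809, 0.0357 and 0.00489), and that in Df(3L)4470/+ in 11 of 12. Yp3 in Df(2L)J-H/+, not called in the main fit (adjusted p = 0.0601, limma), passed in 5 of 12. It passed without centring (0.0379), without a filter (0.0438), with only the arrays compared (0.00329), with array weights (0.000129) and without both pof-mutant groups (0.024). Turned differences were Yp1 (-0.02 without centring) and Yp3 (0.55 with array weights) in the duplication group, yl in pof-mutant (0.09 with a filter of 8) and Yp2 in pof-mutant triplo 4th (-0.00 with median centring). Without centring, the median of all genes lay 0.25 to 0.27 below wild type in the 3 deficiency groups.

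Deviations of same-numbered arrays correlated with a median of -0.02, -0.05 and -0.05 for numbers 1, 2 and 3. Single pairs ranged from -0.797 to 0.79, -0.485 to 0.825 and -0.759 to 0.685. Differently numbered arrays were not set beside them, so whether some groups were paired by number was not tested. With the replicate block, the yolk genes called went from 2 to 1 in Df(2L)J-H/+ (Yp1, adjusted p = 0.0535), from 1 to 0 in Df(3L)4470/+ (yl, 0.0509) and from 2 to 1 over all groups (Yp1, 0.0543), and no other call changed. With median centring the count was 1 in Df(2L)J-H/+ (Yp1, 0.0566) and 1 over all groups (Yp1, 0.0618). Without centring it was 2 in the 3 deficiency crosses. With only the arrays compared, it was 4 in Df(2L)J-H/+, 2 in haplo 4th and 3 in the 3 deficiency crosses. Without both pof-mutant groups, an alternative chosen after seeing the data, it was 1 each in haplo 4th (Yp2), in the deficiency with haplo 4th (yl) and in the duplication group against haplo 4th (Yp2). With array weights, whose estimation did not reach its tolerance, it was 4 in Df(2L)J-H/+, 3 in Df(3L)4470/+, 4 in haplo 4th, 3 in the deficiency with haplo 4th, 2 in the duplication group, 4 in the 3 deficiency crosses, 1 between haplo 4th females with and without the deficiency, 2 between Df(2L)J-H/+ females with 1 and 2 copies of chromosome 4, 3 for the duplication group against haplo 4th, 4 for the difference of the Df(2L)J-H effects and 4 over all groups. The count over all 7378 genes moved too. With array weights, between 2449 and 7300 genes were called in the comparisons listed, among them 5555 in Df(2L)J-H/+ and 4351 in haplo 4th. With only the arrays compared it was 3772 in Df(2L)J-H/+ and 2172 in haplo 4th. Without pof-mutant groups it was 1618 in haplo 4th, 2514 in the deficiency with haplo 4th and 760 in the duplication group against haplo 4th. The main fit called 1312 in Df(2L)J-H/+ and 284 in haplo 4th. The cause of these changes was not tested.

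With 1 array left out, the count ran from 0 to 3 in Df(2L)J-H/+, 0 to 1 in Df(3L)4470/+, 0 to 1 in haplo 4th females with that deficiency, 0 to 1 in pof-mutant and 1 to 3 over all groups. Differences that turned were, in the duplication group, Yp1 (-0.05 to 0.20) and Yp3 (-0.56 to 0.68), in pof-mutant yl (-0.32 to 0.47), and in pof-mutant triplo 4th Yp2 (-0.21 to 0.39), Yp3 (-0.07 to 0.50) and yl (-0.64 to 0.19). The r of Yp1 and yl lost its call in 15 and that of Yp3 and yl in 2 of 27 such runs, added after seeing the data. All genes called in the 3 deficiency crosses numbered 2330 of 7378, but 1399 with a filter of 8, which tests fewer genes, and 5765 of 11893 without a filter. They numbered 4425 without the pof-mutant groups, 4733 with only the arrays compared and 5930 with array weights. Without wild type replicate 3 or 1 they numbered 994 and 1329, so the shares of all genes called rest on these arrays too.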

Other observations

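The yolk proteins are related in sequence to lipases. A list of 17 lipase and lipase-like genes had 8 members past the filter, and whether each is of the same family as the yolk proteins was not tested. Of these 8, between 1 and 4 rose and 0 fell in each of the 8 genotypes against wild type (limma, adjusted p under 0.05). The number was 1, 1 and 2 in the Df(2L)ED4651/+, Df(3L)4470/+ and Df(2L)J-H/+ groups, where between 9.76% and 13.0% of all genes were called higher. It was 3 in haplo 4th, 3 in the duplication group and 4 in haplo 4th females with the J-H deficiency, beside 2.44%, 2.02% and 5.61% of all genes, and 2 in pof-mutant and in pof-mutant triplo 4th, beside 1.36% and 0.447%. The 8 comparisons share the same 3 wild type arrays and are not independent. CG6283 was called in each of the 8 (log2 differences from 1.55 to 3.71). CG6295 was called in all but Df(2L)ED4651/+, Df(3L)4470/+ and Df(2L)J-H/+ (3.23 to 3.79). The list mean had an r of 0.04, 0.12 and 0.17 with Yp1, Yp2 and Yp3 over the levels of the 27 arrays and of 0.54, 0.54 and 0.53 over deviations from the group means. With yl the r was -0.18 and -0.13.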
